A study of Mus musculus with 24 samples.

Results

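Trem2 knockout macrophages were compared with wild-type macrophages after both had been kept in medium conditioned by dying hepatocyte-line cells. The comparison rests on 8 of the 24 libraries of the series, 4 of Trem2(-/-) cells and 4 of WT cells, chosen as all libraries labelled ACM treated, and on the 10733 genes with an FPKM of 1 or more in at least 4 of those 8. FPKM is the number of fragments of a gene divided by its exon length and by the mapped fragments of its library. All groups are primary bone marrow derived macrophages (BMDM) of C57BL/6 mice, grown for 7 days in medium conditioned by L929 fibroblasts, which supplies the growth factor CSF1. In both groups compared, the cells then spent 24 hours in ACM, apoptotic cell culture medium. To make it, AML12 cells, a mouse hepatocyte line, were made apoptotic with 800 uM palmitic acid, a saturated fatty acid, and then conditioned serum-free medium. The series also holds 4 untreated libraries of each genotype and 4 of each given the lipid mediator S1P at 500 nM, which serve here only to show where the ACM groups stand. The labels give no age or number of mice, no knockout allele, no medium from AML12 cells that were not apoptotic and no palmitate given alone.

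TREM2 is a lipid-sensing receptor of macrophages, microglia and osteoclasts. It binds lipids, lipoproteins and the surface of dying cells, has no signalling tail of its own, and passes its signal through the adaptor TYROBP (DAP12) to the kinase SYK. In the liver it marks macrophages that gather around lipid-laden and dying hepatocytes and take up their debris, the lipid-associated macrophages. Dying cells release lipids, proteins and nucleic acids, which macrophages sense through scavenger receptors, lipid-activated nuclear receptors and pattern-recognition receptors.

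The depth by which FPKM was divided, recovered from the steps of the deposited values, was 16.7 M to 20.7 M reads in the 8 libraries. Reads summed over genes exceeded it, with 21.7 M beside 20.2 M in WT ACM 19 and 21.4 M beside 20.7 M in KO ACM 88. It need not be the total of mapped reads. The libraries held 10628 to 10737 genes at an FPKM of 1 or more. The first principal component took 56.9% of the variance and put all 4 KO ACM libraries on one side and all 4 WT ACM libraries on the other. Pairs of libraries differed more between the genotypes, with a chi-square per degree of freedom of 22.1 to 29.5, than within WT ACM, at 2.91 to 4.53, or within KO ACM, at 2.71 to 11.2. The KO ACM group was the less even. Gm23935, a non-coding gene with 57 bases of exon, took 9.87 to 14.5% of the summed FPKM in WT ACM, 18.5 and 17.1% in KO ACM 85 and 86, and 4.38 and 6.23% in KO ACM 87 and 88. Core macrophage genes were present in every library, with summed FPKM of 8508 to 9174 in WT ACM and 7091 to 7428 in KO ACM. Lyz2 alone had a mean of 4496 in WT ACM and 2907 in KO ACM within these sums. All WT libraries carry lower numbers than all knockout libraries, so genotype and any difference in preparation cannot be told apart. Nothing in the labels says whether the 4 libraries of a group came from separate mice or cultures, and p-values measure only the spread between these libraries.

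Trem2 itself lies on chromosome 17 at chr17:48346401-48354147 (GRCm38). Its FPKM was 88.4, 87.4, 93.4 and 91.1 in WT ACM 19 to 22 and 36.8, 40.5, 40.2 and 39.4 in KO ACM 85 to 88. The groups did not overlap, but the transcript was lowered and not lost, at 90.1 ± 2.73 (SD, n = 4) in WT ACM and 39.2 ± 1.67 (SD, n = 4) in KO ACM. The log2 difference, on log2(FPKM + 1) as throughout, was -1.18 ± 0.035 (SE; limma, Benjamini-Hochberg adjusted p = 3.27e-08), and the 2-sided exact permutation test gave p = 0.0286, the smallest that the 70 arrangements of 4 against 4 allow. Reads from outside a deleted part would still be counted, and since the allele is not given, the remaining Trem2 reads cannot be placed. The library labelled KO untreated 81, which is not among the 8, had a Trem2 FPKM of 79.6, within the untreated WT range of 74.5 to 82.7, while the other 3 untreated knockout libraries ranged from 35.7 to 40.2. Gene values and counts of calls below that use the untreated knockout group are therefore given with and without it, apart from counts under other processing settings.

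The genes next to Trem2 also differed. Treml1, which encodes a TREM-like receptor best known from platelets, starts 5.769 kb beyond the end of Trem2, and its FPKM was 1.59, 1.74, 1.61 and 1.77 in WT ACM and 8.08, 8.37, 8.20 and 6.92 in KO ACM. All 4 knockout libraries stood above all 4 wild-type ones, by a log2 difference of 1.73 ± 0.059 (adjusted p = 6.59e-08). Trem1, an activating receptor that amplifies inflammatory signals and lies upstream of Trem2, read 8.97, 8.23, 7.92 and 7.47 in WT ACM and 18.8, 18.3, 18.3 and 19.4 in KO ACM. It too rose without overlap, by 1.11 ± 0.049 (adjusted p = 2.41e-07). Trem3, a further activating member, rose at a low level from 0.870 ± 0.333 to 1.92 ± 0.499 (log2 difference 0.65). Treml2 fell from 17.97 ± 0.711 to 13.8 ± 0.518 (log2 difference -0.36), and its neighbour B430306N03Rik fell by 0.26 on the log2 scale. Thus the change around Trem2 did not have 1 direction.

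Within 2 Mb of Trem2, 37 other genes were tested, of which 8 were higher and 7 lower in KO ACM, 40.5% in all, beside 33.7% of all genes tested (15.9% higher and 17.8% lower). Only Treml1, Trem1 and Trem3 among them differed by 0.5 or more. Guca1a, which encodes a guanylate cyclase activator, fell by 0.45 on the log2 scale, and A530064D06Rik rose by 0.35. Smaller differences were called for Dnph1 (0.31), Klc4 (0.16), Cnpy3 (0.15) and Ubr2 (0.08), and for Srf (-0.14), Cul7 (-0.18), Foxp4 (-0.21) and Trerf1 (-0.26). The annotation lists the gene Trerf1 as a processed transcript. The calls of Dnph1, Ubr2, Srf, Cul7 and Foxp4 were lost when single libraries were left out, with the highest adjusted p at 0.0527, 0.0786, 0.0622, 0.104 and 0.072, in that order.

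**Figure D1:**
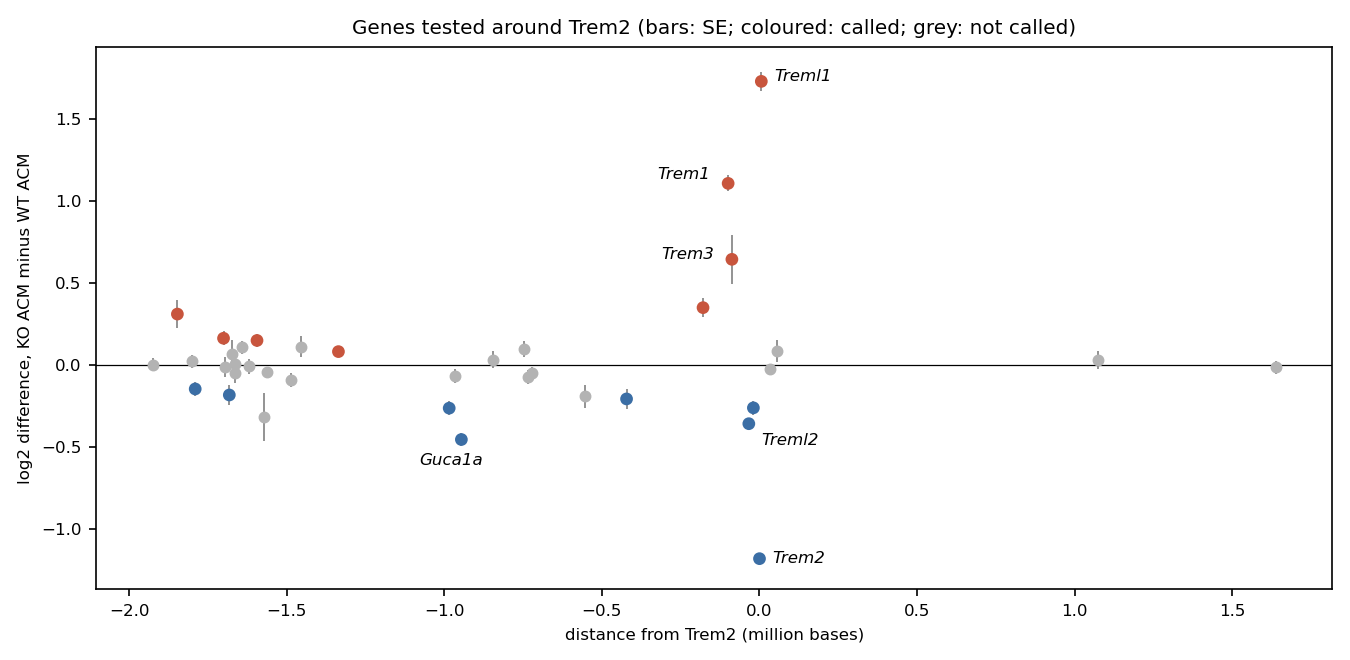
Log2 difference KO ACM minus WT ACM (y axis; bars, SE) for the 38 genes tested within 2 Mb of Trem2, against distance from Trem2 (x axis, Mb). Treml1, Trem1 and Trem3 lie above 0 beside Trem2 at -1.18, and most genes farther away lie near 0.

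Of the receptors and signalling partners as a list, 23 of 26 passed the filter, 8 were higher and 3 lower, and the median difference was 0.08 beside 0.0061 over all genes tested. Trem2 itself is one of the 3. Tyrobp, the adaptor, read 646, 606, 683 and 678 in WT ACM and 681, 658, 765 and 697 in KO ACM. These overlapped, with a log2 difference of 0.10 ± 0.053 (adjusted p = 0.178). Hcst, the adaptor that pairs with some of the same receptors, had a difference of 0.22 ± 0.14 (adjusted p = 0.283). Clec5a, another TYROBP-linked receptor, rose from 20.8 ± 0.995 to 32.8 ± 0.953 (log2 difference 0.63, adjusted p = 1.32e-06).

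Downstream, Pik3cg, a phosphoinositide kinase subunit, rose by 0.41 on the log2 scale, Inpp5d, the lipid phosphatase SHIP1 that restrains this pathway, by 0.23, Card9 by 0.22 and Plcg2, the phospholipase of the pathway, by 0.14. Syk fell by 0.06 on the log2 scale with an adjusted p of 0.0423. Without any 1 of the 8 libraries that p rose to between 0.0514 and 0.111. The other tested members had adjusted p-values from 0.0922 to 0.823: Adam10 and Adam17, the proteases that shed TREM2, Btk, Vav1, Vav3, Plcg1, Pik3cd, Pik3r1, Ptpn6 and Lgals3, a galectin that binds TREM2, with differences between -0.06 and 0.09. Treml4, Sirpb1a and Sirpb1b were below the filter.

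Across all genes, 3619 of 10733 differed at an adjusted p under 0.05, 33.7%, with 1706 (15.9%) higher and 1913 (17.8%) lower in KO ACM. The counts of called list members below are to be read beside these shares. Differences of at least 1 log2 unit were fewer, 43 higher and 62 lower. After scaling every library to a common FPKM sum (TPM), a step in which the share of Gm23935 moves all other genes, 2063 genes were called, of which 1258 were higher. The share of higher calls was then 61.0% in place of 47.1%.

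**Figure D2:**
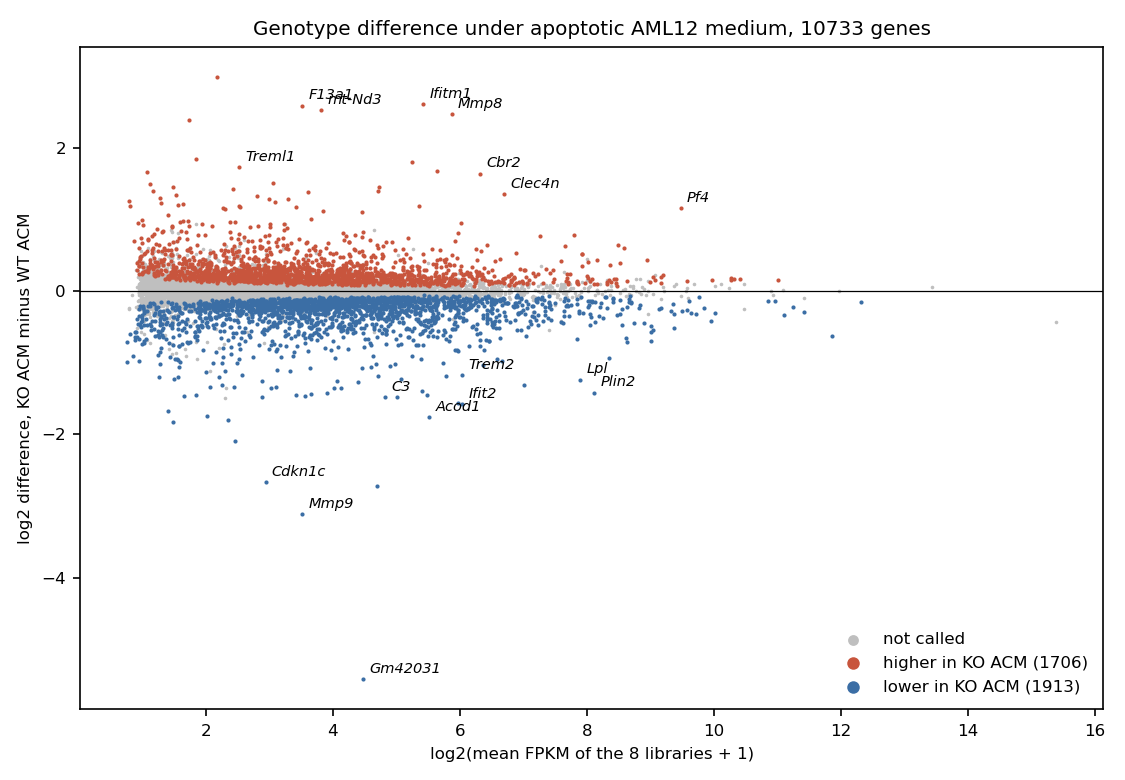
Log2 difference KO ACM minus WT ACM (y axis) against log2(mean FPKM of the 8 libraries + 1) (x axis) for the 10733 genes tested, with 1706 called higher and 1913 called lower in colour. Most called genes lie within 1 log2 unit of 0, with Gm42031 lowest of all and Mmp9, Cdkn1c, F13a1, Ifitm1 and Mmp8 among the genes farthest from 0.

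The largest falls among well-expressed named genes took in a matrix protease, a cell cycle inhibitor, interferon-induced genes and metabolic genes. Mmp9, the gelatinase, read 21.4, 19.8, 19.7 and 17.5 in WT ACM and 1.85, 1.48, 0.846 and 1.42 in KO ACM. Its mean was 14.04-fold lower in the knockout (log2 difference -3.12 ± 0.12, adjusted p = 1.11e-07), with no overlap. Cdkn1c, the cyclin-dependent kinase inhibitor p57, read 12.2, 13.1, 11.6 and 12.2 and 0.904, 1.11, 0.911 and 1.49, in that order, 11.1-fold lower. Acod1, which makes itaconate from an intermediate of the citrate cycle, read 70.5, 71.1, 73.6 and 64.4 in WT ACM and 20.1, 20.9, 18.5 and 20.3 in KO ACM (log2 difference -1.76 ± 0.047). In all these genes every wild-type library stood above every knockout library, which the choice of the largest falls required. The serpin Serpinb9b fell by 1.81 on the log2 scale, Cox6a2, the muscle form of a cytochrome oxidase subunit, by 1.75, C3, the central complement protein, by 1.48, the RNA-binding protein gene Igf2bp2 by 1.48, Procr, the endothelial protein C receptor, by 1.47, Slfn4 by 1.45 and the dynein light chain gene Dynlt1b by 1.43. Dynlt1b has near-identical copies, and its reads may be split among them. The other 5 of the 15 largest falls, Ifit2, Ifit3, Cmpk2, Rsad2 and Cxcl10, are interferon-induced genes described below.

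The largest rises took in collagenases, granule and platelet-factor genes and receptors. Ifitm1, a membrane protein of the interferon-induced transmembrane family, read 10.99, 9.50, 11.8 and 12.5 in WT ACM and 70.1, 64.5, 80.5 and 76.01 in KO ACM, 6.51-fold higher (log2 difference 2.60 ± 0.085, adjusted p = 5.34e-08). F13a1, the A chain of coagulation factor XIII, read 2.22, 2.22, 2.83 and 1.87 and 21.4, 18.8, 15.8 and 18.8, in that order. Mmp8, the neutrophil collagenase, read 15.8, 17.4, 16.6 and 18.2 in WT ACM and 97.1, 99.4, 93.9 and 102 in KO ACM (log2 difference 2.46 ± 0.043). No library of one genotype reached the range of the other in these 3 genes, which the choice of the largest rises likewise required. Mmp13, a further collagenase, rose from 15.9 ± 1.58 to 57.9 ± 5.51, Mmp27 by 1.38 on the log2 scale, the Fc receptor-like gene Fcrls by 1.67, Cbr2, a carbonyl reductase, by 1.64, the alarmins S100a9 and S100a8 by 1.51 and 1.43, and the chemokine precursor Ppbp by 1.45. Cd33, an inhibitory sialic acid receptor, rose by 1.39, Clec4n, the fungal lectin dectin-2, by 1.35, the purinergic receptor P2ry13 by 1.28, and Il1r2, the decoy receptor of interleukin 1, by 1.24.

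**Figure D3:**
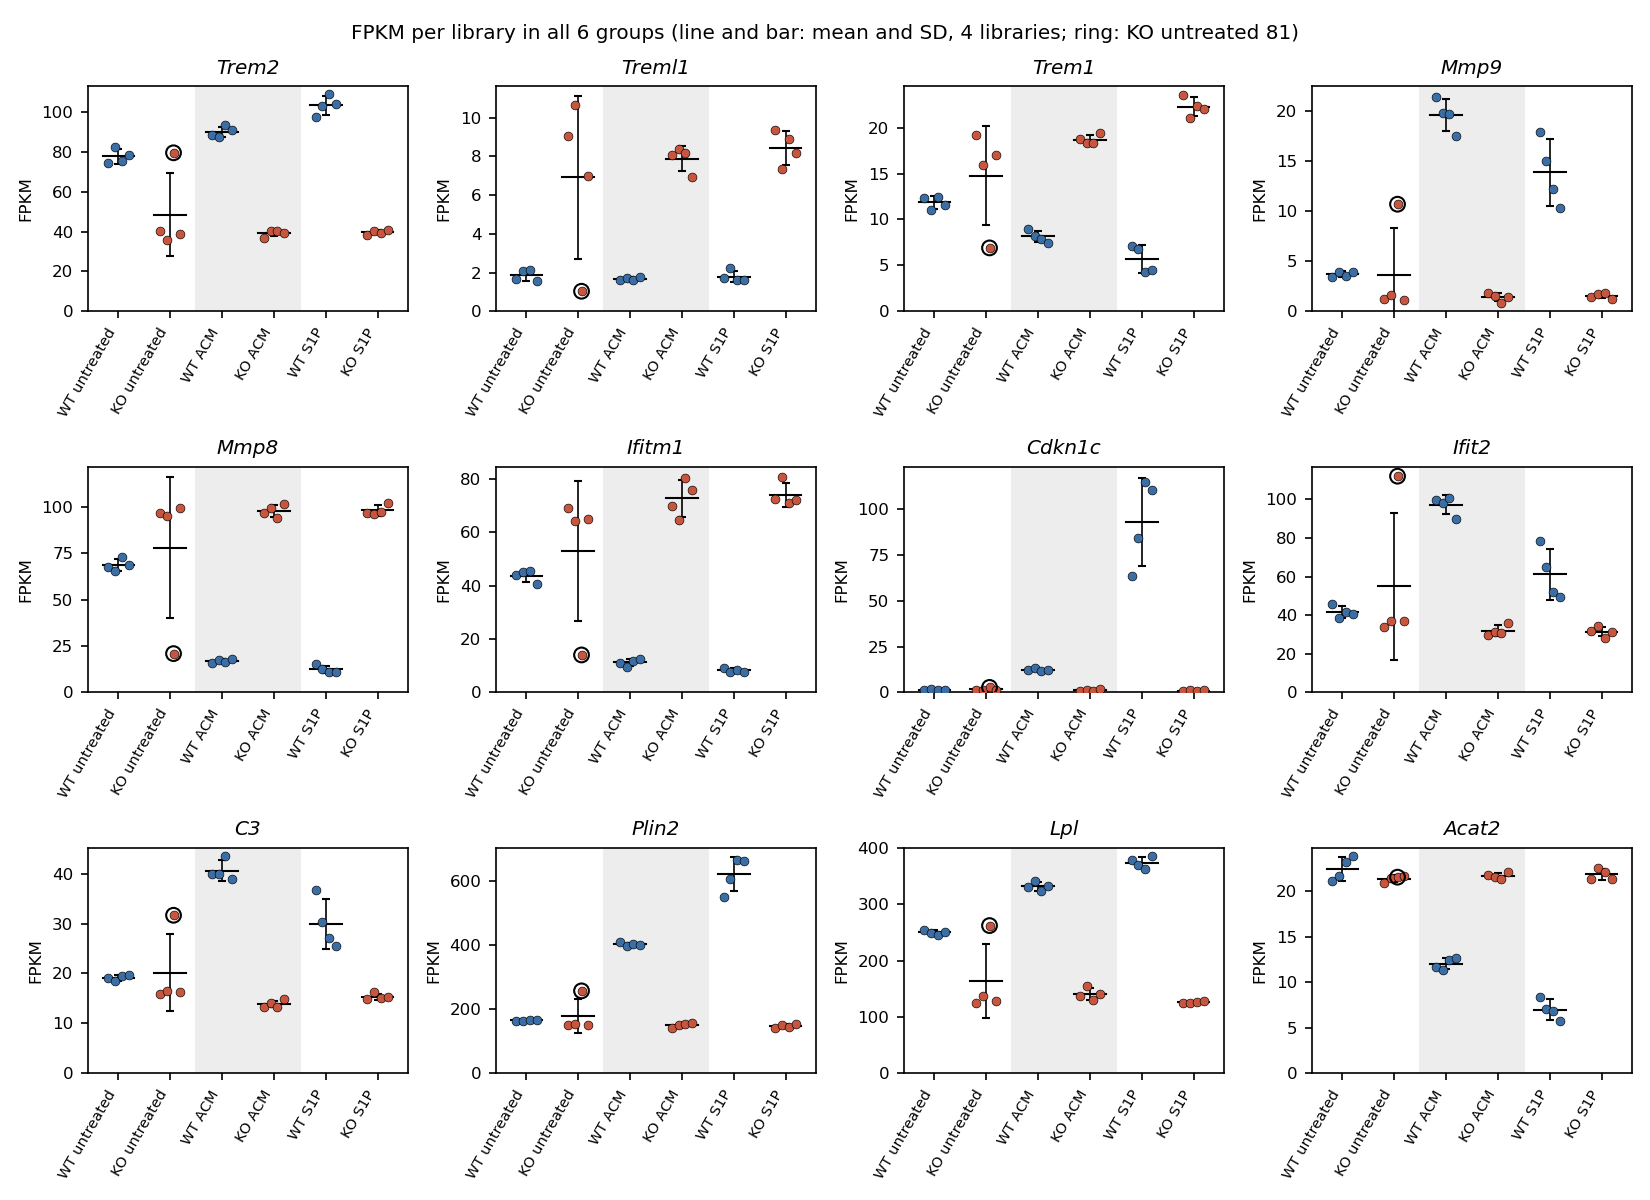
FPKM per library (y axis) of 12 genes in the 6 groups (x axis), the ACM groups shaded, with the mean and SD of 4 libraries and a ring around KO untreated 81. The blue and red ACM points do not overlap in any of the 12 genes, a condition by which several of them were chosen. The ringed library lies among or near the WT points for Trem2 and Treml1.

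Interferon-stimulated genes were lower in the knockout. Type I interferon signals through the transcription factor complex ISGF3, which binds the interferon-stimulated response element in the promoters of antiviral genes. Of 33 such genes tested, 32 were lower and 0 higher in KO ACM, with a median of -0.65. The remaining gene had a difference of -0.04. Ifit2, which blocks translation of viral RNA, read 99.8, 98.4, 101 and 89.99 in WT ACM and 29.5, 31.4, 30.7 and 35.9 in KO ACM, and Ifit3, its partner, read 89.9, 101, 93.8 and 87.8 and 27.5, 30.01, 32.5 and 32.8. Their log2 differences were -1.58 ± 0.059 and -1.57 ± 0.061, without overlap, a condition by which both were chosen. Rsad2 (viperin), an antiviral enzyme, fell from 64.3 ± 4.50 to 22.97 ± 2.17, its neighbour on chromosome 12 Cmpk2, a mitochondrial nucleotide kinase, from 46.6 ± 3.28 to 15.9 ± 0.387, Mx1 from 24.1 ± 1.40 to 8.82 ± 0.695 and Oasl1 from 31.9 ± 1.38 to 14.8 ± 0.579.

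The p200 family, sensors of DNA and regulators of transcription, and the interferon GTPases, which attack vacuoles of pathogens, moved the same way with 1 marked exception. Of 24 tested, 20 were lower and 2 higher, with a median of -0.56. Gbp6, among those lower, passed the filter only through WT ACM (1.87 ± 0.279 in WT ACM and 0.871 ± 0.0565 in KO ACM). Ifi204 fell by 0.82 on the log2 scale. Ifi206 read 22.6, 23.2, 22.9 and 20.5 in WT ACM and 7.11, 8.91, 7.92 and 8.39 in KO ACM. Ifi208, a close relative, went the other way: it read 0.0188, 0.0193, 0 and 0.0214 in WT ACM and 2.14, 2.43, 1.94 and 2.34 in KO ACM (log2 difference 1.66). Ifi208 passed the filter only through KO ACM, and without any 1 KO ACM library, 1 of the list was higher. Reads of such related genes can be split between them by the counting.

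The promoters of 4 of these genes are given to show the element and how alike Ifi206 and Ifi208 are there. Each runs from 250 bases before to 50 after the RefSeq gene start (GRCm38.p6), 5′ to 3′ on the gene's strand, and capitals mark the core of the interferon-stimulated response element, GAAA and GAAA with any 2 bases between them, or its reverse complement. Ifit3 (chr19:34583279-34583578, plus strand) holds 2 copies, and Rsad2 (chr12:26456403-26456702, minus strand), Ifi206 (chr1:173491269-173491568, minus strand) and Ifi208 (chr1:173673415-173673714, plus strand) hold 1 each.
Ifit3: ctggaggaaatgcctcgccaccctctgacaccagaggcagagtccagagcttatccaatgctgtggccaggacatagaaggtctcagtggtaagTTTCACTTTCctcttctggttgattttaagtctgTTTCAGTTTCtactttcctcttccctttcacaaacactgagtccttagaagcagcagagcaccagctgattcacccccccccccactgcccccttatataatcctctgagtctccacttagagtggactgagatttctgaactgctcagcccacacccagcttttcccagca
Rsad2: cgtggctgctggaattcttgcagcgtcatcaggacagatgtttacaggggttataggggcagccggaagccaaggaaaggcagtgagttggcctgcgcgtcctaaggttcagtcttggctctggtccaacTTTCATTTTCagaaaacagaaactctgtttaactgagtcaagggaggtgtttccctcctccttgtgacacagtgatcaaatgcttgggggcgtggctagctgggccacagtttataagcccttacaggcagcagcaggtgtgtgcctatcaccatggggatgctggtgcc
Ifi206: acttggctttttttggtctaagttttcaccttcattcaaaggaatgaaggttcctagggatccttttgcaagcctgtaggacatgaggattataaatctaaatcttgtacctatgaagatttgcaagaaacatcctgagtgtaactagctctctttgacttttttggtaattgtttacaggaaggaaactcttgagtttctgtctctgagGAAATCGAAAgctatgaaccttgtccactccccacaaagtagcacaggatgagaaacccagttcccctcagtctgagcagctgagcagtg
Ifi208: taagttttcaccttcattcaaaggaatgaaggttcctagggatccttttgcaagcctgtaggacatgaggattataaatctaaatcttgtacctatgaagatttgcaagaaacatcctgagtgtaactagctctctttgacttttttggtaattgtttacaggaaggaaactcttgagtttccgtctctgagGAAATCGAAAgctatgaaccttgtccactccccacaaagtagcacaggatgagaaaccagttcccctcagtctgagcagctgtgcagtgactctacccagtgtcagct
The Ifi206 and Ifi208 windows share an unbroken run of 182 bases, which ends shortly before the element, and 279 of their 300 bases lie in blocks shared in order. Searched on both strands, that core occurred in the windows of 13 of the 24 interferon-response genes found in the RefSeq table (54.2%), of 17 of 20 p200 and GTPase genes (85%), of 4 of 15 class I presentation genes (26.7%) and of 1079 of 27025 genes in all (3.99%).

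Antigen presentation split by class. Of 19 genes of MHC class I and peptide loading, 17 were lower and 0 higher (median -0.42), and 12 were lower under TPM scaling. Tapbp, the tapasin that loads peptide, read 164, 160.0, 159 and 154 in WT ACM and 106, 106, 98.7 and 101 in KO ACM, and Nlrc5, the transactivator of class I genes, fell from 15.5 ± 0.459 to 9.83 ± 0.398. Both fell without overlap. Of 13 tested genes of class II and costimulation, 9 were higher and 2 lower (median 0.32). H2-Ob, among those higher, passed the filter only through KO ACM (0.697 ± 0.0929 in WT ACM and 1.16 ± 0.0859 in KO ACM). On reads recovered from the FPKM, limma-voom called 4 higher. H2-Aa, a class II chain, read 4.96, 5.98, 6.30 and 6.38 in WT ACM and 12.1, 12.02, 10.9 and 11.5 in KO ACM, and H2-Eb1 rose by 1.00 and Cd83 by 0.89. The 2 that fell were Cd40, by 0.86 on the log2 scale, and Cd274, the ligand PD-L1, by 0.49.

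**Figure D4:**
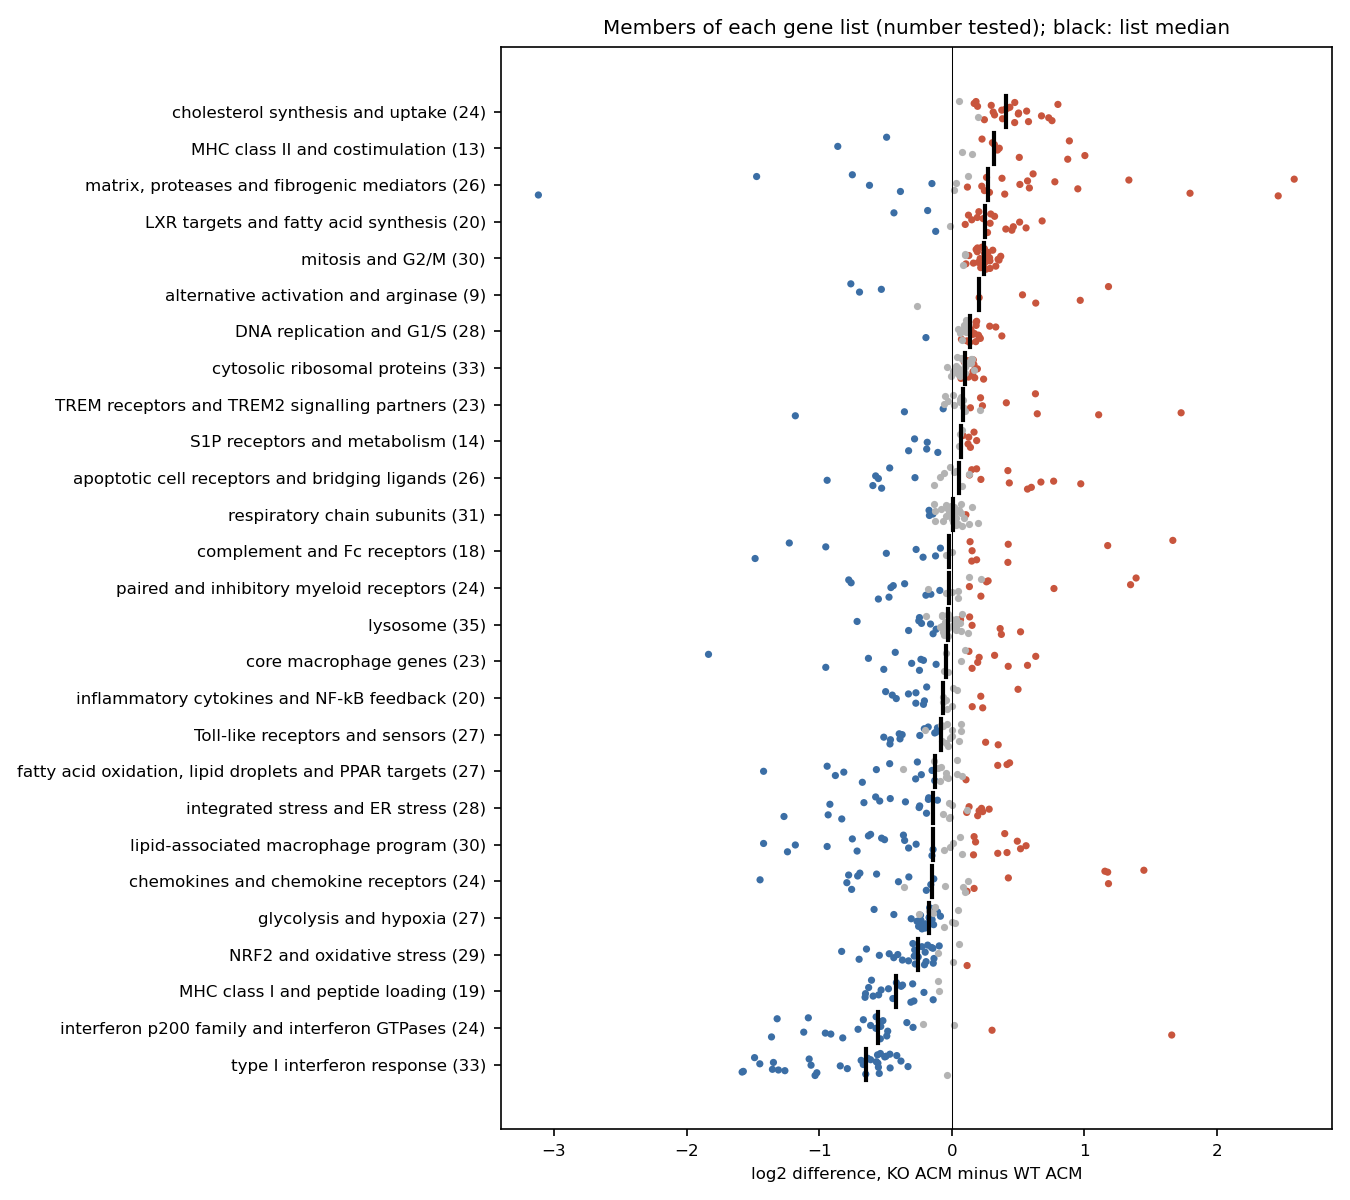
Log2 difference KO ACM minus WT ACM (x axis) of each tested member of each gene list (y axis, number tested in brackets), with called members in colour, others in grey and the list median as a black bar. The interferon and class I lists lie to the left of 0 and the cholesterol list to the right.

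Several genes of lipid storage and uptake fell, while genes of cholesterol synthesis rose. In the lipid-associated macrophage program, 30 genes tested, 9 were higher and 16 lower, with a median of -0.14. Trem2 itself is one of the 16. Under TPM scaling 6 were higher and 13 lower. Plin2, the coat protein of lipid droplets, read 409, 398, 401 and 399 in WT ACM and 140.5, 150.4, 153 and 155 in KO ACM. The knockout level was 2.68-fold lower (log2 difference -1.42 ± 0.032, adjusted p = 7.07e-09), with no overlap. Lpl, the lipoprotein lipase, read 330.2, 341, 323 and 333 in WT ACM and 137, 155, 129 and 140.4 in KO ACM (log2 difference -1.24 ± 0.048). Cd36, a receptor for oxidised lipids and dying cells, fell from 426 ± 8.01 to 222 ± 12.2, and Lipa, the acid lipase of lysosomes, from 490.5 ± 10.99 to 299 ± 4.01. Apoe, the lipid-carrying apolipoprotein, went the other way, from 64.4 ± 1.47 to 95.4 ± 1.70 (log2 difference 0.56).

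Genes of fatty acid oxidation, lipid droplets and PPAR targets were lower more often than higher, 12 against 4 of 27 tested (median -0.13). Under TPM scaling it was 8 against 3. Cpt1a, the enzyme that commits fatty acids to the mitochondrion, read 38.03, 39.4, 38.2 and 36.6 in WT ACM and 24.2, 24.6, 22.7 and 22.5 in KO ACM, and Slc25a20, the carnitine carrier of the same route, fell by 0.81 on the log2 scale. Cholesterol synthesis showed the reverse: 22 of 24 genes were higher and 0 lower, with a median of 0.41. Acat2, which makes acetoacetyl-CoA for the pathway, read 11.7, 11.3, 12.4 and 12.7 in WT ACM and 21.7, 21.6, 21.3 and 22.1 in KO ACM. Idi1, an isomerase of the pathway, rose by 0.73. No library of one genotype entered the range of the other in either gene. Of 20 LXR targets and fatty acid synthesis genes, 16 were higher and 3 lower (median 0.25); the lower count was 1 under TPM scaling and 1 without WT ACM 19, without WT ACM 20 or without KO ACM 85. Fasn, the fatty acid synthase, read 21.6, 20.3, 21.1 and 20.8 in WT ACM and 34.9, 34.6, 34.9 and 32.6 in KO ACM, Abca1, the cholesterol exporter, rose by 0.45, and Pltp, the phospholipid transfer protein, fell by 0.44 on the log2 scale. TCACNCCAC, a sterol element core, stood in the promoter window of 1 of 17 cholesterol genes (5.88%) and of 388 of 27025 genes in all (1.44%).

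Receptors for apoptotic cells and their bridging ligands changed in both directions, 11 higher and 7 lower of 26 tested (median 0.06). Stab1, a scavenger receptor for phosphatidylserine, read 114, 111, 113 and 113 in WT ACM and 196, 192, 196 and 187 in KO ACM. Gas6, the ligand that bridges dying cells to AXL and MERTK, rose from 305 ± 6.40 to 462 ± 5.71, and Havcr2 (TIM-3) rose by 0.67. Mfge8, the other main bridging ligand, fell by 0.59 on the log2 scale, alongside Cd36. Lysosome genes were mostly not called, with 6 higher and 8 lower of 35 tested (median -0.03). That is close to the shares of all genes tested, 15.9% higher and 17.8% lower. Under TPM scaling 2 were lower, and quantile normalization gave 11 higher. Ctsl, a lysosomal protease, rose by 0.52.

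Fc receptors divided by type. Complement and Fc receptor genes were called in equal numbers, 8 higher and 8 lower of 18 tested (median -0.02), and 4 and 4 under TPM scaling. Fcgr2b, the inhibitory Fc receptor, read 23.4, 24.1, 24.5 and 25.02 in WT ACM and 53.4, 53.7, 59.8 and 57.7 in KO ACM. Fcgr1, the activating high-affinity receptor, read 124, 126, 129 and 121 in WT ACM and 62.7, 64.2, 61.9 and 68.00 in KO ACM, and Fcgr4 fell from 45.99 ± 2.44 to 19.1 ± 1.47. Thus the inhibitory receptor was higher and these 2 activating receptors lower, each without overlap. Of 24 paired and inhibitory receptors, 7 were higher and 10 lower (median -0.02), and 6 and 7 under TPM scaling. Cd33 read 13.1, 13.3, 14.2 and 13.7 in WT ACM and 37.5, 36.3, 37.8 and 36.95 in KO ACM, while Clec12a, an inhibitory lectin that senses dead cells, fell by 0.76 on the log2 scale.

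Matrix and protease genes were higher in 17 and lower in 6 of 26 tested (median 0.27). Beside the collagenases above, Plau, the urokinase, read 163, 162, 164 and 162 in WT ACM and 283, 276, 281 and 279.7 in KO ACM, and its receptor Plaur rose by 0.57. Among chemokines and their receptors, 7 were higher and 12 lower of 24 (median -0.15), and 5 and 8 under TPM scaling. Ccl22, among those higher, passed the filter only through KO ACM, and Ccr3, among those lower, only through WT ACM. Cxcl10, an interferon-induced attractant of T cells, fell from 17.4 ± 1.66 to 5.75 ± 0.488. Pf4, the platelet factor also made by macrophages, read 443, 429, 458 and 432 in WT ACM and 965, 940.3, 1033 and 995 in KO ACM, and Cxcr4, the CXCL12 receptor, rose by 1.18.

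Cytokine, sensor and alternative activation genes changed in both directions. Of 20 cytokine and NF-kB feedback genes, 4 were higher and 9 lower (median -0.06), with 5 lower under TPM scaling; Ier3 rose by 0.50 and Traf1 fell by 0.50 on the log2 scale. Of 27 Toll-like receptor and sensor genes, 2 were higher and 12 lower (median -0.08), and 6 were lower under TPM scaling. The 2 higher became 1 without WT ACM 20, 21 or 22 or KO ACM 85, 86 or 88. Cd14, the lipopolysaccharide co-receptor, fell from 775 ± 6.13 to 543 ± 9.45. Of 9 alternative activation genes, 5 were higher and 3 lower (median 0.21). Ccl22, among those higher, was at most 0.109 in WT ACM and at least 1.31 in KO ACM, so it passed the filter only through KO ACM. Mrc1, the mannose receptor, rose from 282 ± 7.48 to 439 ± 21.9, and Tgm2, a transglutaminase, fell by 0.76 on the log2 scale. S1P receptor and metabolism genes were 6 higher and 5 lower of 14 (median 0.07), and 2 and 2 under TPM scaling. S1pr2 fell by 0.32 on the log2 scale.

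Stress genes were lower more often than higher. Of 29 NRF2 and oxidative stress genes, 25 were lower and 1 higher (median -0.25), and 10 were lower under TPM scaling. Srxn1, which repairs peroxiredoxins, read 76.9, 77.5, 81.1 and 79.3 in WT ACM and 41.98, 42.97, 46.5 and 43.98 in KO ACM, Prdx1 fell by 0.55 on the log2 scale, and Gpx1 by 0.70. Of 28 integrated and endoplasmic reticulum stress genes, 7 were higher and 15 lower (median -0.14), and 3 and 9 under TPM scaling. Ddit3, the stress factor CHOP, read 29.1, 29.97, 26.8 and 29.5 in WT ACM and 9.90, 11.6, 11.7 and 12.5 in KO ACM, the chaperone Hspa5 fell by 0.66 on the log2 scale, and Atf3 by 0.83. None of these overlapped. Of 27 glycolysis and hypoxia genes, 19 were lower and 0 higher (median -0.17), and 4 were lower under TPM scaling. Vegfa fell by 0.59 on the log2 scale.

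Cell cycle genes were slightly higher in the knockout, with calls that depend on the fit. Of 30 mitosis genes, 27 were higher and 0 lower (median 0.24), and of 28 replication genes 18 were higher and 1, Pcna, lower (median 0.14). When all 24 libraries shared 1 estimate of the spread, 4 mitosis genes and 2 replication genes were called higher. Under TPM scaling 24 and 11 were higher, and without KO ACM 87 and 88, 26 and 11. Kif20a, a mitotic kinesin, rose from 14.2 ± 0.266 to 17.3 ± 0.237, and Rrm2, a subunit of ribonucleotide reductase, from 41.9 ± 1.68 to 54.7 ± 1.38. Ribosomal protein genes were higher in 13 and lower in 0 of 33 (median 0.10), a count that was 2 under TPM scaling, 8 under median scaling and 27 under quantile normalization. It was 8 without WT ACM 19, WT ACM 20 or KO ACM 87. Rpl3 rose by 0.24. Nuclear respiratory chain genes were called in 4 of 31, 1 higher and 3 lower (median 0.01), beside 33.7% of all genes tested, and in 0 under TPM scaling. The 1 higher became 0 without WT ACM 19 and 2 without WT ACM 21 or KO ACM 85.

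Markers of other cell types were examined because marrow cultures can hold more than macrophages. Of 7 granulocyte markers tested, 5 were higher and 1, Mmp9, lower. The summed FPKM over all 16 genes was 47.3 to 51.4 in WT ACM and 125 to 133 in KO ACM. The defining genes Mpo, Ly6g, Camp, Ltf, Lcn2, Ctsg and Cxcr2 were below an FPKM of 1 in all 8 libraries and Retnlg was at 0, while Elane read 0.330 ± 0.151 and 1.66 ± 0.486, and Ngp 0.649 ± 0.172 and 1.81 ± 0.293. Elane and Ngp reached an FPKM of 1 in KO ACM only. They thus passed the filter through the group where they were higher, and could only count as higher. Without any 1 KO ACM library, 3 were higher, with fewer of the list passing the filter. In bulk RNA, more cells of a type and more RNA per cell cannot be told apart. Mmp8 is itself on this list and carries most of the rise of the sum: over the other 15 genes the sum was 30.7 to 34.4 in WT ACM and 31.4 to 32.6 in KO ACM, and with Mmp9 left out as well it was 10.96 to 14.8 in WT ACM and 30.2 to 31.1 in KO ACM. These genes were left out after their values were seen, and the marker sums are not separate from the rises of Mmp8, S100a8 and S100a9 given above. Monocyte markers were 3 higher and 4 lower of 8 tested, with sums of 47.95 to 58.1 in WT ACM and 57.5 to 69.6 in KO ACM. These sums include F13a1, whose rise given above was the largest of the list, at 2.58 on the log2 scale. The median difference of the monocyte list was -0.05, so the sums do not show a rise of these markers as a group. Without WT ACM 19, 20 or 21 or KO ACM 88, 2 monocyte markers were lower. Osteoclast markers were 2 higher and 4 lower of 8, with sums of 61.2 to 64.7 in WT ACM and 39.1 to 42.7 in KO ACM. That list also holds Mmp9, whose difference of -3.12 was its lowest, beside a list median of -0.23. The sum without Mmp9 was not taken. Of hepatocyte markers, 2 of 20 were tested and Ass1, which macrophages also express, was lower, while Alb, Apoc3 and 8 more were at 0 in all 8 libraries. No fibroblast marker reached an FPKM of 1 in any of the 8 libraries. Of dendritic cell markers 2 of 12 were tested and 1, Cd24a, was higher, a call lost without WT ACM 19, 21 or 22 or KO ACM 85, 87 or 88. Of lymphoid, mast and erythroid markers 1 of 17, Ighm, was tested and was higher. Core macrophage genes were 8 higher and 10 lower of 23, and 6 and 6 under TPM scaling. Among those lower was Marco, a scavenger receptor, which went from 3.40 ± 0.330 to 0.234 ± 0.0999 and passed the filter only through WT ACM. Xist was below an FPKM of 1 in all 8 libraries, and of 4 Y-linked genes 3 were slightly higher in KO ACM (median 0.18).

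Several transcripts divided the genotypes almost completely. They were picked after their values were seen. Gm42031, a non-coding RNA gene on chromosome 8, had a mean FPKM of 42.4 in WT ACM and was at or near 0 in KO ACM, at most 0.0559. Its range was 37.05 to 51.9 in untreated and 21.7 to 32.5 in S1P-treated WT libraries, and it read 37.9 in KO untreated 81. The mitochondrial gene mt-Nd3 read 3.70, 2.77, 2.59 and 3.56 in WT ACM and 27.9, 24.9, 17.6 and 21.9 in KO ACM, with 4.33 in KO untreated 81. Ifi208 read 0.0229 in that library, beside 2.46 to 2.93 in the other 3 untreated knockout libraries. In all 3 transcripts KO untreated 81 stood with the WT libraries. It was not like WT untreated in every gene. Ptchd1 read 2.25 in it, 0.980 to 1.21 in WT untreated and 2.12 to 2.63 in WT ACM. Marco read 2.76 in it, 0.765 to 1.47 in WT untreated and 2.96 to 3.75 in WT ACM. Elane, at 0.919, lay between WT untreated (0.576 to 0.772) and the other 3 untreated knockout libraries (1.01 to 1.46). It was above WT ACM (0.153 to 0.458). What this library holds was not tested.

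Whether the genotype difference under ACM differed from that in the other treatments was tested with interactions. WT cells changed with ACM: 2511 of 11377 genes (22.1%) differed between WT ACM and WT untreated in 1 fit of all 24 libraries. Between KO ACM and KO untreated 1 gene (0.00879%) was called, and 5 (0.0440%) without KO untreated 81, with 1043 and 885 genes at an unadjusted p under 0.05. Between KO ACM and KO S1P 4 genes (0.0352%) were called, and 26 (0.229%) without that library. These few calls do not show that the knockout groups were alike. Between the untreated genotypes 281 genes (2.47%) were called, and 926 (8.15%) without KO untreated 81.

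The interaction, the genotype difference under ACM minus that in untreated cells, was called for 1940 of 11377 genes (17.1%), 843 (7.41%) higher and 1097 (9.64%) lower. Without KO untreated 81 it was called for 1693 (14.9%), 701 (6.17%) higher and 992 (8.74%) lower, with 1572 of them among the 1940. Under TPM scaling 77.5% of calls were higher, in place of 43.5%, and the median of all genes moved from 0.0078 to 0.12. Of the 33 interferon genes 31 were called lower, also without that library, and the median genotype difference in untreated cells was 0.17, or -0.05 without it. Of 24 cholesterol genes 19 were called higher, and 20 without it. Plin2 is an example of a called interaction (-1.49, and -1.30 without that library): its FPKM ranged from 161 to 167 in WT untreated, 398 to 409 in WT ACM and 550.0 to 664 in WT S1P, but from 149 to 153 in 3 untreated knockout libraries, 140.5 to 155 in KO ACM and 141 to 153 in KO S1P, with 257 in KO untreated 81. Acat2 was 21.1 to 23.8 in WT untreated and 21.3 to 22.1 in KO ACM, with 11.3 to 12.7 in WT ACM. Not every gene had one. The interaction of Trem2 was -0.43 (adjusted p = 0.154), and -0.17 (adjusted p = 0.065) without KO untreated 81. That of Treml1 was 0.52 (adjusted p = 0.469), and -0.05 (adjusted p = 0.877) without it. Neither was called, nor were those of Dynlt1b and Ifi208, with or without that library.

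Genes with the smallest interaction p-values are named here with the log2 interaction from all libraries and, second, without KO untreated 81. They included Scd1, a fatty acid desaturase (0.71 and 0.71), Cdkn1c (-2.79 and -2.61), Aacs, which activates acetoacetate for lipid synthesis (0.61 and 0.61), Ptprs (-0.68 and -0.68), Neurl3 (-0.85 and -0.78), Fasn (0.79 and 0.74), Cpt1a (-0.72 and -0.66), Trim25, a ubiquitin ligase of RNA sensing (-0.52 and -0.48), and Ighm (1.69 and 1.80). All 9 were also called without KO untreated 81. Against S1P the genotype difference under ACM differed for 3274 genes (28.8%), 1406 (12.4%) higher and 1868 (16.4%) lower, and for 3655 (32.2%) when KO untreated 81 was left out of the fit. Under TPM scaling 69.9% of calls were higher in place of 42.9%, and the median of all genes moved from -0.0014 to 0.11. Cell cycle genes lay there: 30 of 30 mitosis genes were called lower under ACM than under S1P, where their median genotype difference was 1.06, and 0 were called higher. The NRF2 genes were called higher in 19 of 29, with a median of -0.92 under S1P. The genotype differences in the 3 treatments do not share libraries, but each interaction shares the ACM libraries with the ACM difference, so they are given side by side and not as separate evidence.

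**Figure D5:**
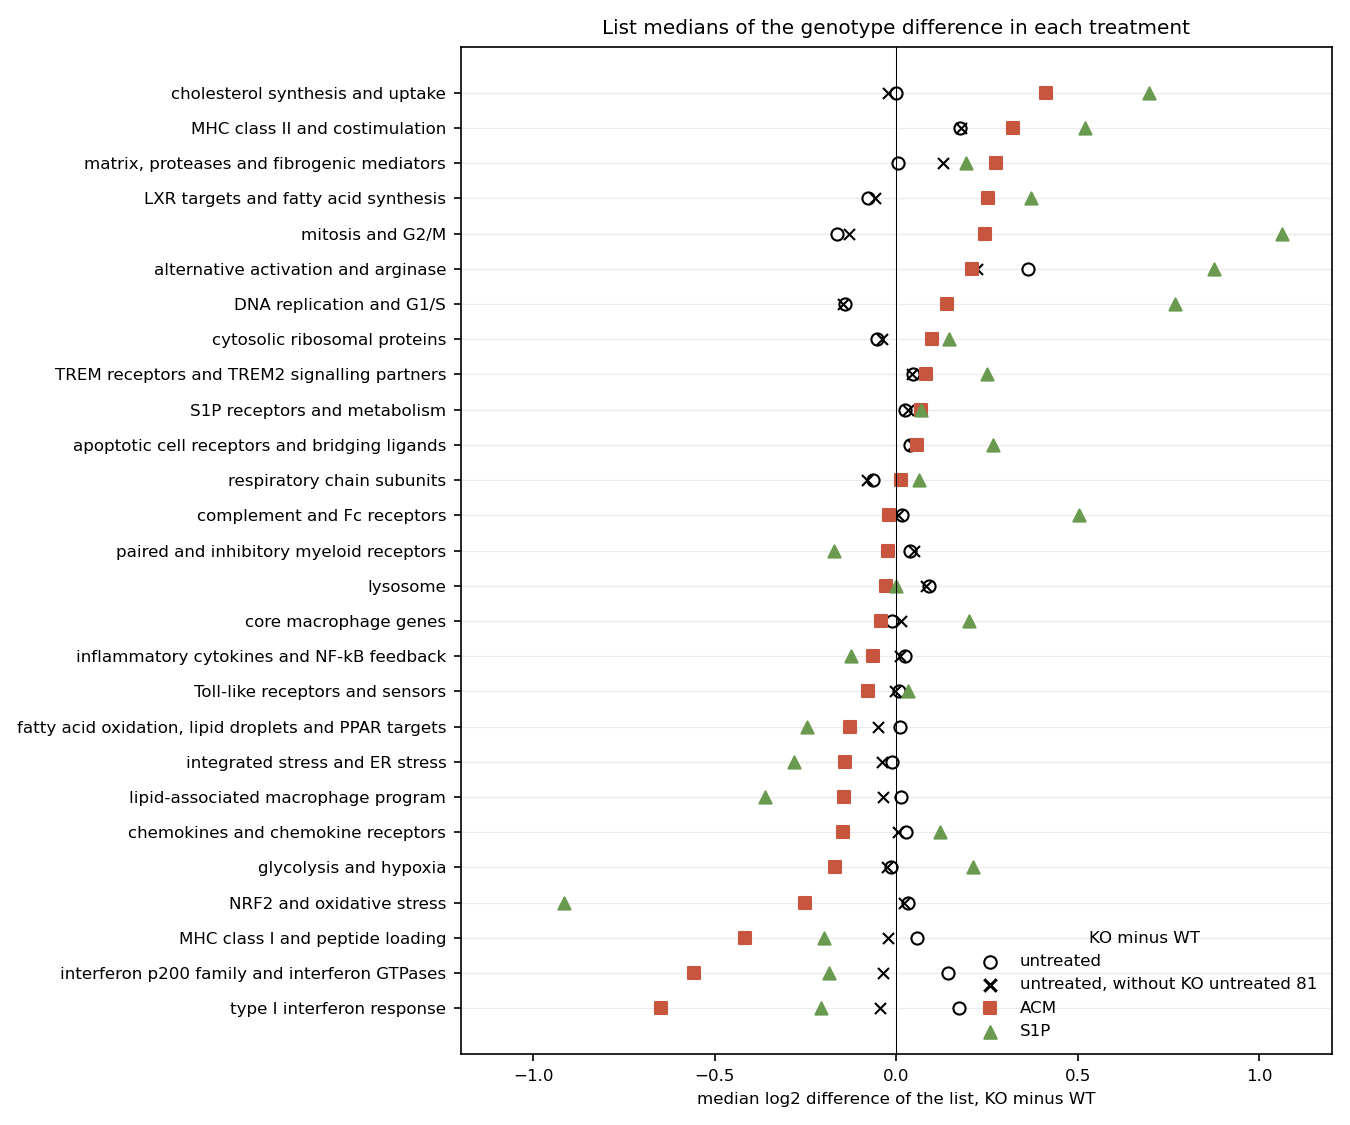
Median log2 difference KO minus WT (x axis) of each gene list (y axis) in untreated cells (open circles; crosses, without KO untreated 81), under ACM (squares) and under S1P (triangles). The ACM median of the interferon list lies at -0.65, and the S1P medians of the cell cycle lists lie far to the right of the ACM ones.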

How the data were processed

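RNA from bone marrow derived macrophages was extracted with Trizol and made into oligo(dT)-selected libraries, per the labels' protocols. The authors deposited 1 table of FPKM per gene and library. The submitters' processing notes name the builds mm10 and GRCm38, the aligners STAR and HISAT2, the counters StringTie and featureCounts, and STAR-Fusion, DESeq and edgeR, without versions or an order. How strand was handled is likewise not stated there. Genes were placed with GENCODE M21 (GRCm38), and 54495 of 54532 IDs matched. Sequences are RefSeq's.

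log2(FPKM + 1) was tested with limma 3.58.1 (R 4.3.3, trend), WT ACM against KO ACM, over genes with an FPKM of 1 or more in at least 4 of the 8 libraries. Interactions came from 1 fit of all 24 libraries. A gene is called at a Benjamini-Hochberg adjusted p under 0.05. The log2 scale with its pseudocount understates changes of low genes. Of genes above 0, 97.0% gave whole reads in every library (tolerance 0.05), from which depth was recovered. The Trem2 permutation test used scipy 1.17.1. The fit of KO ACM against WT ACM was tested on simulated reads with known changes. The interactions, the other scalings and the recovery of reads were not tested in that way.

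The genes compared and the 35 gene lists were chosen with earlier results of these data known. Lists are described by counts and medians, with no set test. Named genes are Trem2, the 15 largest rises and falls without overlap and with a mean FPKM of at least 5, up to 6 members of each list and 10 of each interaction by smallest p, the TREM list, and called protein-coding genes within 2 Mb of Trem2; the text gives a selection, and the results of some are not reported here. Gm42031, mt-Nd3, Ccr3, Gbp6, H2-Ob and Ptchd1 fall outside it. Pseudocounts, filters, scalings, limma-voom and left-out libraries were the alternatives.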

Additional observations from a re-analysis of the deposited data

Results flagged for a closer look

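In 13 of 254 groups of 4 libraries checked, over 127 of the genes named above in WT ACM and KO ACM, 1 library lay far from the other 3 by Dixon's test. Chance flags about 1 in 20 groups. The outlying lowest FPKM values were those of B430306N03Rik in WT ACM 22 (22.3), Guca1a in WT ACM 19 (17.1), Guca1a in KO ACM 88 (11.4), Ifi208 in WT ACM 21 (0) and Fasn in KO ACM 88 (32.6). Further outlying lowest FPKM values were those of Ctsl in KO ACM 85 (275) and Tgm2 in WT ACM 22 (37.8). The outlying highest FPKM values were those of Cnpy3 in KO ACM 87 (34.6), Mmp27 in KO ACM 88 (18.7), Cxcr4 in KO ACM 87 (15.7), Clec12a in WT ACM 20 (50.4) and Aacs in WT ACM 22 (18.02). Further outlying highest FPKM values were those of Gm42031 in KO ACM 85 (0.0559).

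The genotype difference under ACM differed from that in untreated cells, by the interaction term of the fit to all 24 libraries (limma, Benjamini-Hochberg adjusted), for 84 of 127 genes named above. Over all genes tested, the interaction was called for 1940 of 11377 (17.1%). Many of the named genes were chosen by their ACM difference or by this interaction, so a larger share among them was built in. Leaving out KO untreated 81 left 81 of the 84 called, lost Rrm2, Kif20a and Gas6, added A530064D06Rik, Ppbp and Lpl, and changed the sign of 0. Each gene is given with its log2 interaction from all 24 libraries and, second, without KO untreated 81. Lower under ACM, by the log2 interaction, were Cdkn1c (-2.79 and -2.61), Mmp9 (-2.67 and -2.08), Ifit3 (-1.78 and -1.35), Ifit2 (-1.77 and -1.37), Procr (-1.70 and -1.59), Ddit3 (-1.66 and -1.50), Rsad2 (-1.66 and -1.28), Fcgr4 (-1.60 and -1.29), Ifi206 (-1.59 and -1.29), Serpinb9b (-1.58 and -1.45), Cox6a2 (-1.57 and -1.35), Acod1 (-1.56 and -1.14), Cmpk2 (-1.54 and -1.14) and Slfn4 (-1.53 and -1.29). The lower genes also took in C3 (-1.49 and -1.26), Plin2 (-1.49 and -1.30), Marco (-1.46 and -1.04), Mx1 (-1.38 and -1.05), Oasl1 (-1.30 and -1.04), Cxcl10 (-1.30 and -0.91), Igf2bp2 (-1.25 and -0.99), Tgm2 (-1.12 and -0.98), Ifi204 (-0.99 and -0.76), Srxn1 (-0.94 and -0.85), Fcgr1 (-0.88 and -0.63), Neurl3 (-0.85 and -0.78), Slc25a20 (-0.83 and -0.70) and Lipa (-0.77 and -0.61). The lower genes also took in Tapbp (-0.77 and -0.64), Cd274 (-0.75 and -0.67), Cpt1a (-0.72 and -0.66), Atf3 (-0.71 and -0.52), Ptprs (-0.68 and -0.68), Prdx1 (-0.67 and -0.62), Hspa5 (-0.67 and -0.53), Cd36 (-0.67 and -0.47), Treml2 (-0.67 and -0.61), Nlrc5 (-0.66 and -0.58), Cd40 (-0.65 and -0.45), Gpx1 (-0.63 and -0.48), Vegfa (-0.60 and -0.56) and Traf1 (-0.53 and -0.50). The lower genes also took in Trim25 (-0.52 and -0.48), B430306N03Rik (-0.51 and -0.48), Clec12a (-0.50 and -0.30), Guca1a (-0.47 and -0.39), S1pr2 (-0.36 and -0.30) and Syk (-0.15 and -0.16). Higher under ACM, by the log2 interaction, were Ifitm1 (2.56 and 2.02), Mmp8 (2.51 and 1.97), F13a1 (1.87 and 1.35), Ighm (1.69 and 1.80), Mmp13 (1.45 and 1.01), Fcrls (1.43 and 1.17), Cbr2 (1.30 and 0.99), Cd33 (1.29 and 1.03), P2ry13 (1.17 and 1.03), Pf4 (1.09 and 0.82), Cxcr4 (0.94 and 0.73), Mmp27 (0.94 and 0.67), Il1r2 (0.93 and 0.60) and Trem1 (0.90 and 0.60). The higher genes also took in Fcgr2b (0.89 and 0.69), Acat2 (0.87 and 0.87), Idi1 (0.82 and 0.85), Fasn (0.79 and 0.74), S100a8 (0.77 and 0.58), Scd1 (0.71 and 0.71), Plau (0.71 and 0.57), Elane (0.65 and 0.61), Mrc1 (0.64 and 0.56), Aacs (0.61 and 0.61), Clec5a (0.61 and 0.51), Stab1 (0.59 and 0.44), Plaur (0.57 and 0.37) and Rrm2 (0.55 and 0.50). The higher genes also took in Havcr2 (0.53 and 0.38), Ier3 (0.52 and 0.36), Cd83 (0.48 and 0.43), Kif20a (0.47 and 0.42), Pik3cg (0.45 and 0.40), Ctsl (0.44 and 0.32), Gas6 (0.42 and 0.35) and Rpl3 (0.29 and 0.26).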

How the results depend on the processing

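The 3619 calls between KO ACM and WT ACM became 2063 under TPM scaling, with 805 lower. Other settings gave 3588 with a pseudocount of 0.1, 3152 with no filter, 2970 at an FPKM of 5 or more, 3583 with quantile normalization, 3596 with median scaling, 3789 with limma-voom on reads recovered from the FPKM, and 3186 with all 24 libraries in 1 fit. Leaving out 1 library gave 3022 to 3364. In settings chosen after seeing the data, leaving out KO ACM 87 and 88 gave 2684, with 1112 higher in place of 1706, and leaving out KO ACM 85 and 86 gave 2908. Calls of at least 1 log2 unit, 105, became 187 with a pseudocount of 0.1 and 198 with limma-voom. The Trem2 difference lay between -1.203 and -1.120 under all alternatives run.

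For the interaction of genotype with ACM, calls higher, 843, became 554 with no filter and 1499 under TPM scaling, where those lower, 1097, became 436. Its calls of at least 1 log2 unit, 90, became 165 with a pseudocount of 0.1 and 157 with limma-voom, and leaving out 1 library gave 1596 to 1923 calls in all. For ACM against S1P, calls lower, 1868, became 799 under TPM scaling, and calls of at least 1 log2 unit, 114, became 193 with a pseudocount of 0.1, 72 at an FPKM of 5 or more and 193 with limma-voom. Leaving out 1 library gave 68 to 155 of these, with 71 without WT S1P 28, 68 without WT S1P 27 and 2533 to 3843 calls in all. The causes of these moves were not tested.

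Of single genes, 10 of 127 lost their call in at least 1 setting and 4, none of them called, changed sign: Pik3cd to 0.0017 and Adam17 to 0.0055 under TPM scaling, Vav1 to 0.033 under TPM scaling and 0.0021 with quantile normalization, and Lgals3 to -0.0070 without WT ACM 20, -0.0015 without KO ACM 87 (range without 1 library -0.0070 to 0.022) and -0.0078 without KO ACM 87 and 88. Of 84 interactions, 16 lost their call in at least 1 setting and 0 changed sign. In 1 fit of all 24 libraries, 4 of 18 complement and Fc receptor genes, 3 of 28 stress genes and 2 of 20 cytokine genes were higher, in place of 8, 7 and 4, and 1 of 20 LXR and fatty acid genes, 3 of 14 S1P genes and 2 of 8 monocyte markers lower, in place of 3, 5 and 4. Without KO ACM 87 and 88, 3 S1P genes were higher and 3 lower, and 3 stress genes higher. No paired analysis was possible because the genotypes share no replicate numbers. Genes under an FPKM of 1 in most libraries were not tested.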
